A study of Homo sapiens with 6 samples.

Results

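Natural killer (NK) cells are lymphocytes that weigh activating against inhibitory signals from the surface of the cells they meet. This report follows the RNA of 10 genes whose proteins give such signals, in the endometriosis epithelial cell line 12Z. They were taken by name from the 60660 genes of the count tables: MICA, MICB, ULBP1, ULBP2, ULBP3 and RAET1G, which are stress-induced ligands of the activating receptor NKG2D, and for comparison HLA-E and its light chain B2M, the NKp30 ligand NCR3LG1 and the DNAM-1 ligand PVR. The list was chosen by the fold change of MICB in these same libraries, which was among the largest increases after LINC01133 knockdown, and the other genes were added for what their proteins do. The difference between the groups is therefore a description for all 10 genes, and no p-value is given for them. Of the 10, 9 passed the filter on low counts and RAET1G did not, among 15155 genes that passed.

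12Z is an immortalised epithelial line derived from an endometriosis lesion. The control group comprised 3 libraries of 12Z cells that received a non-targeting siRNA, and the knockdown group comprised 3 libraries of 12Z cells that received the siRNA oligo LINC01133a at 10 nM. All cells were lysed 72 h after transfection, and polyA RNA was sequenced. A single cell line and a single targeting oligo were sequenced, no NK cells were in the cultures, and RNA was measured rather than protein at the cell surface. The libraries of a group are biological replicates by the study's account.

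NKG2D ligands are relatives of MHC class I proteins that bind no peptide. Healthy epithelium shows little of them at its surface, and stress, infection or transformation can bring them out, which marks the cell for NK cells and some T cells. HLA-E with B2M has the opposite role, since it presents peptides to the receptor CD94/NKG2A, which restrains NK cells. NCR3LG1, also called B7-H6, engages the activating receptor NKp30. PVR, also called CD155, engages the activating DNAM-1 and the inhibitory TIGIT. NK cells are also a leukocyte population of the endometrium.

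The sequences that bear on these genes are the transfected oligo, the starts of MICA and MICB, and short sites in the 3′ UTRs. The strands of LINC01133a are shown because every knockdown library received them, and the capitals mark bases 2 to 8 from the 5′ end, the seed by which a small RNA can pair with other transcripts.
Guide strand: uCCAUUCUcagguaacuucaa
Passenger strand: gAAGUUACcugagaauggatt
The DNA word complementary to the guide seed, AGAATGG, was present in the annotated 3′ UTR of 17.1% of 12538 tested genes that have one. It occurred once each in ULBP1, ULBP3, HLA-E, NCR3LG1 and PVR, and was not found in MICA, MICB, ULBP2, RAET1G or B2M. The 3′ UTRs with the word were 1448 to 4829 bases long and those without it 34 to 1215, and the share was not adjusted for length. The ULBP1 and ULBP3 matches lie in related sequence, and are shown with the word in capitals (GRCh38, gene strand).
ULBP1, chr6:149972565-149972594, plus strand: cagacagcctgtAGAATGGggaaaactatt
ULBP3, chr6:150062150-150062179, minus strand: cagacagcgtgtAGAATGGggaaactattt
The passenger word GTAACTT occurred in 13.6% of the same 3′ UTRs and in none of the 10 genes.

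MICA and MICB lie on the plus strand of chromosome 6 in the class I part of the MHC, at chr6:31399784-31415315 and chr6:31494881-31511124 on GRCh38. Their canonical transcripts matched at 91.7% of 1352 aligned bases. The 250 bases before each RefSeq start (GRCh38.p14) are shown because this pair is compared most closely, and the capitals mark the only match in each to the heat shock element core GAANNTTC.
MICA, chr6:31403345-31403594, plus strand: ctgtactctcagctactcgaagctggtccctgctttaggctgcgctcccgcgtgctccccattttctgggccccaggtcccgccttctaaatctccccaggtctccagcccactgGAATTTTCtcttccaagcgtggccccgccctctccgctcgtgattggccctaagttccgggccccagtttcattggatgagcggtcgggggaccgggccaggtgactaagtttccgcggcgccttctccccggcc
MICB, chr6:31497895-31498144, plus strand: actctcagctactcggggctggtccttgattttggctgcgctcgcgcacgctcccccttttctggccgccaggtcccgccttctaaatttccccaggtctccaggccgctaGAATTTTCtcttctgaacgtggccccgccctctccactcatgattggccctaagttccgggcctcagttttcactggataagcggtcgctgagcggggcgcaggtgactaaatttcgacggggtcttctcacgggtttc
RefSeq windows of 300 bases, which add 50 bases after the start, were found for 9 of the 10 genes, all but HLA-E. In these windows MICA and MICB were identical at 246 of 284 aligned bases, or 86.6%. All motifs were searched on both strands. The heat shock core was present in the windows of MICA and MICB and not in the other 7, and 6.77% of 35116 RefSeq windows held it. The GC box GGGCGG was found in the windows of MICA, MICB, ULBP1, ULBP2, ULBP3, RAET1G and NCR3LG1, against 45% of all windows, and the letters CCAAT in those of MICA, MICB, ULBP2, RAET1G and B2M, against 34.6%. The E2F-like word TTTCCCGC occurred in ULBP2 alone among these windows, against 1.63% of all, and the core of the interferon-stimulated response element in B2M alone, with 2 matches, against 3.57%. Such matches describe letters and not occupied sites.

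MICA and MICB also share a 3′ UTR site for one family of miRNAs, short RNAs that pair with messages through the same seed bases and lower their output. The 4 mature RefSeq sequences shown have the seed AAAGUGC in common, in capitals.
hsa-miR-17-5p: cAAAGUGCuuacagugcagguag
hsa-miR-20a-5p: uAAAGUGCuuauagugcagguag
hsa-miR-93-5p: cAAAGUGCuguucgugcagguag
hsa-miR-106b-5p: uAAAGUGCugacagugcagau
The complementary word GCACTTT is in capitals in the related sites of both messages.
MICA, chr6:31415177-31415206, plus strand: tggatctcacaaGCACTTTccctcttggtg
MICB, chr6:31509947-31509976, plus strand: tggatctcaccaGCACTTTccctctgtttc
This word was present in 25.4% of the 12538 3′ UTRs, with 1 match in NCR3LG1 and 2 in PVR, and none in ULBP1, ULBP2, ULBP3, RAET1G, HLA-E or B2M. miRNA levels were not measured in these libraries.

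Before the ligands, the depth and the target were examined. Each library held 27742562 to 37551194 counts on genes. LINC01133 was counted 859, 726 and 808 times in control libraries and 153, 135 and 122 times after knockdown. The normalized count, which is the count scaled to a common effective library size, was 823 ± 12.8 in control and 133 ± 4.68 in knockdown cells (SD, n = 3), so that 16.2% of the control level remained. Called genes are those with a fold change over 1.5 and an adjusted p under 0.05 in the quasi-likelihood test of edgeR, adjusted by Benjamini-Hochberg. Of the 15155 tested genes 11.7% were called, 5.30% as higher and 6.43% as lower in knockdown cells, and 48.3% had an adjusted p under 0.05 at any fold change.

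MICB, MICA's close paralog, had the largest difference in normalized counts among the NKG2D ligands. Control libraries held 367, 276 and 294 counts of MICB and knockdown libraries 1256, 1165 and 871. Scaled for depth, these were 347, 311 and 305 against 1065, 1131 and 988. The lowest knockdown library stood well above the highest control library. The mean went from 321 ± 23.1 to 1061 ± 71.6 (SD, n = 3), 3.31 times the control level, a fitted log2 fold change of 1.72 with a standard error of 0.071. Ordered by fold change, MICB was 22nd of the 803 genes called higher, and 2nd of the 376 of them that averaged 100 normalized counts or more.

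MICA, which encodes the other MHC-linked ligand, was also higher in every knockdown library, by a smaller factor. The control libraries held 598, 558 and 555 counts, and the knockdown libraries 908, 811 and 673. Normalized counts were 566, 629 and 575 in control and 769.7, 788 and 764 in knockdown cells. The groups did not overlap, and the means of 589.9 ± 33.8 and 774 ± 12.5 (SD, n = 3) differed 1.31 times (log2 fold change 0.39, standard error 0.058), short of the 1.5-fold cutoff. No window as long as a read was identical between the canonical MICA or MICB transcript and another gene's transcript. Reads that mapped to more than 1 place were dropped by the aligner, and both genes are polymorphic, so the count of each also depends on how close the line's alleles are to the reference.

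The other NKG2D ligand genes lie together on chromosome 6, RAET1G at chr6:149916878-149923121 (minus strand), ULBP2 at chr6:149942014-149949235 (plus), ULBP1 at chr6:149963943-149973715 (plus) and ULBP3 at chr6:150061053-150069121 (minus). ULBP1, a GPI-anchored ligand, was barely detected in control cells. Only 6, 5 and 5 counts were found in control libraries, against 38, 28 and 15 after knockdown. Each knockdown library held more than every control library. Summed over libraries, 16 counts stood against 81, a depth-adjusted ratio of 4.76 with an exact counting interval of 2.76 to 8.73, which covers counting error only. ULBP1 passed the filter on low counts only through the knockdown libraries, so this ratio and its interval are a description. The normalized mean was 5.50 ± 0.275 in control and 25.5 ± 7.74 in knockdown cells (SD, n = 3), and the fitted log2 fold change of 2.22 had a standard error of 0.35. The knockdown libraries of ULBP1 were spread more widely, relative to their mean, than those of MICB.

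Its neighbours in the cluster did not share this size of difference. ULBP2 had normalized counts of 87.1, 78.9 and 80.8 in control and 96.6, 88.4 and 91.9 in knockdown cells. These ranges did not overlap but were close, with means of 82.3 ± 4.30 and 92.3 ± 4.15 (SD, n = 3) and a log2 fold change of 0.17, standard error 0.13. ULBP3 lay in the other direction, at 154, 165 and 165 against 149, 139 and 137. Its mean was 161 ± 5.96 in control and 142 ± 6.47 in knockdown cells (SD, n = 3), without overlap, a log2 fold change of -0.18 with a standard error of 0.10. RAET1G, which encodes ULBP5, had 16, 6 and 3 counts in control and 9, 2 and 9 in knockdown libraries. The groups overlapped, and the 25 against 20 counts gave a depth-adjusted ratio of 0.753 with a counting interval of 0.397 to 1.41, so that no difference was detectable at this depth. RAET1G shares 138 exon bases with RAET1E-AS1 on the other strand. Of its strand-assigned counts, 35.7% were in the strand column not used here, against at most 0.439% for the other 9 genes. In ULBP2, 7.18% of the windows as long as a read were identical to RAET1L, so some of its reads could not be placed.

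HLA-E and B2M, the inhibitory pair, were the most abundant of the 10 genes per length. HLA-E lies on the plus strand at chr6:30489509-30494194, and B2M on the plus strand at chr15:44711358-44718851. HLA-E, the heavy chain, had normalized counts of 2495, 2322 and 2576 in control and 2256, 2216 and 2385 in knockdown cells. The ranges overlapped, and the means were 2464 ± 130.1 and 2286 ± 88.1 (SD, n = 3), a log2 fold change of -0.11 with a standard error of 0.047. B2M, the light chain of all MHC class I molecules, had normalized counts of 19722, 18557 and 20816 against 15802, 15703 and 16729. Every knockdown library was below every control library. The mean went from 19699 ± 1130 to 16078 ± 566 (SD, n = 3), 81.6% of the control level, and the log2 fold change was -0.29 with a standard error of 0.045. MICA and MICB proteins, by contrast, reach the surface without this light chain.

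NCR3LG1 and PVR, ligands of NKp30 and DNAM-1, were slightly higher in knockdown cells. They lie on the plus strand at chr11:17351800-17377341 and chr19:44643798-44666162. Normalized counts of NCR3LG1 were 869, 920.3 and 916 in control and 1016, 942 and 1086 in knockdown cells. Its groups were adjacent without overlap, with means of 902 ± 28.5 and 1014 ± 71.9 (SD, n = 3) and a log2 fold change of 0.17, standard error 0.058. PVR stood at 2621, 2611 and 2490 against 2946, 3050 and 2660. The lowest knockdown library was just above the highest control library, and the means of 2574 ± 72.9 and 2886 ± 202 (SD, n = 3) gave a log2 fold change of 0.17 with a standard error of 0.050. In PVR, 20.6% of the exon bases are shared with other genes on the same strand, so part of its reads were not assigned.

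**Figure D1:**
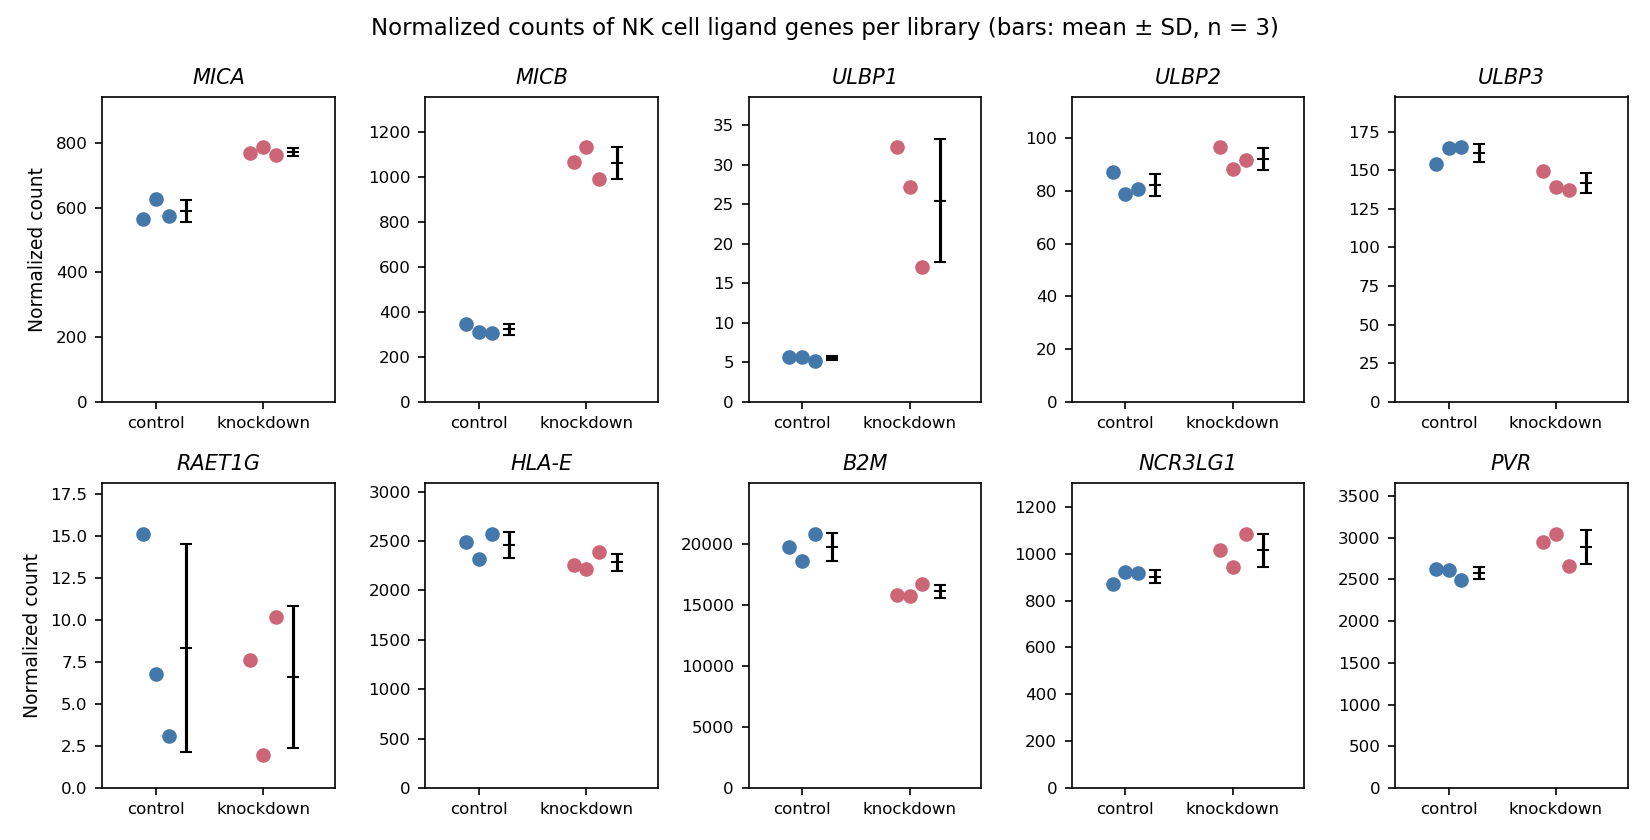
Normalized counts (vertical axis, from 0, a scale for each gene) of the 10 genes in the 3 control and 3 knockdown libraries, with 1 point per library and bars for the mean ± SD. MICB and ULBP1 show the widest separation, B2M and ULBP3 are lower in knockdown, and the groups of RAET1G and HLA-E overlap.

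MICB and ULBP1 were past both cutoffs among the 9 tested genes, and no gene of the list was called lower, where 11.7% of all tested genes were called in either direction and 5.30% as higher. Nothing can be read from this count, since MICB chose the list and ULBP1 reached the filter on low counts only through the knockdown libraries. The median log2 fold change of the 9 was 0.17, and that of all tested genes was 0.0032.

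To compare genes with each other, depth-scaled counts (CPM) were divided by exon length, giving CPM per kb of exon. In control cells the order was B2M at 195 ± 11.2, HLA-E at 26.1 ± 1.38, PVR at 7.63 ± 0.216, MICA at 4.73 ± 0.271, NCR3LG1 at 4.38 ± 0.138 and MICB at 3.55 ± 0.255. Below these came ULBP2 at 1.90 ± 0.0995, ULBP3 at 1.60 ± 0.0592, RAET1G at 0.173 ± 0.128 and ULBP1 at 0.0529 ± 0.00265 (SD, n = 3). No neighbours in this order overlapped in their library ranges, although MICA and NCR3LG1, and RAET1G and ULBP1, were near. In knockdown cells MICB stood at 11.7 ± 0.791, and so went from the 6th to the 3rd place, above PVR at 8.55 ± 0.598, MICA at 6.21 ± 0.0999 and NCR3LG1 at 4.93 ± 0.349. ULBP1, at 0.245 ± 0.0745, and RAET1G, at 0.137 ± 0.0880, exchanged places there, with overlapping ranges. These levels depend on the length used, and dividing by the longest single transcript instead left the control order as it was but put MICB, at 13.6, just below PVR, at 13.8, in knockdown cells. The canonical MICA transcript is shorter than both lengths used, and canonical lengths would put MICA above MICB in knockdown cells. The exon length of PVR also includes the bases shared with other genes, whose reads were not assigned, which can lower its level here.

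**Figure D2:**
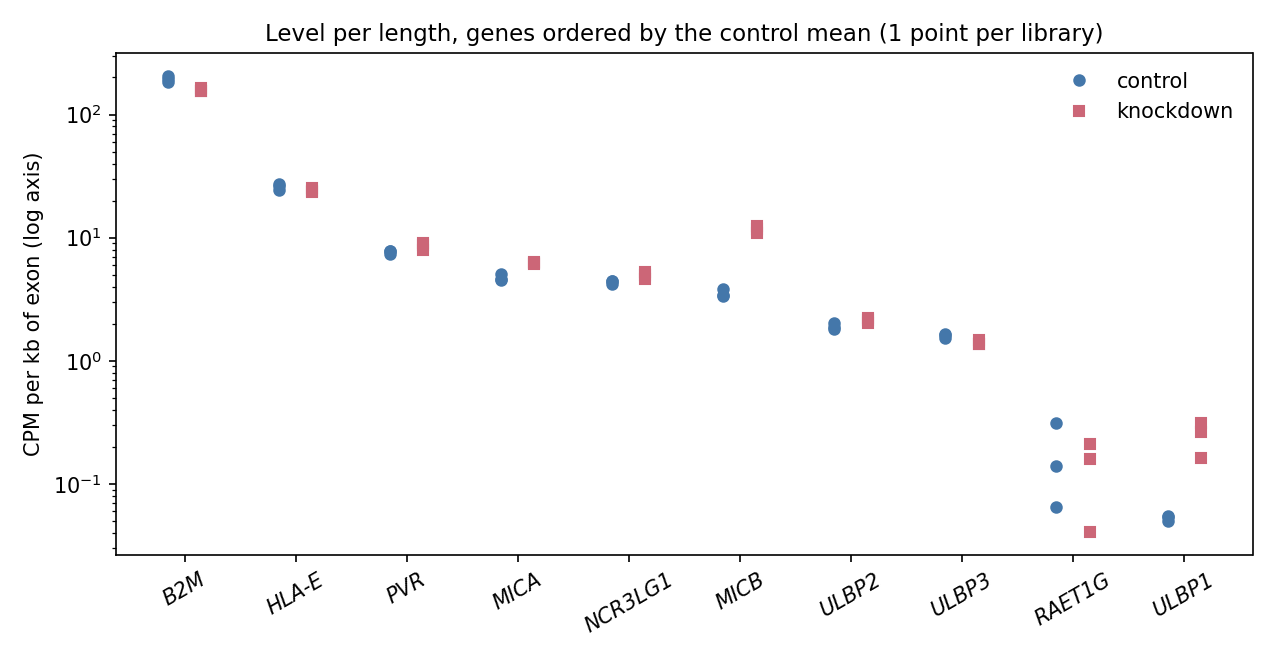
CPM per kb of exon (log axis) of the 10 genes, ordered by their control mean, with 1 point per library (circles, control; squares, knockdown). MICB passes from below NCR3LG1, at 3.55, to above PVR, at 11.7 (with the longest transcript as length it stays just below PVR), while ULBP1 stays low in both groups.

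The 8 human NKG2D ligand genes, with RAET1E and RAET1L added, gave a total of 12.3, 12.2 and 11.6 CPM per kb of exon in control libraries and of 22.1, 22.6 and 21.0 after knockdown. The means were 12.0 ± 0.351 and 21.9 ± 0.824 (SD, n = 3), a ratio of 1.82. MICB made up 29.4 ± 1.54% of the control total and 53.5 ± 1.70% of the knockdown total. MICA was the largest contributor in control cells at 39.3 ± 2.29%, and made up 28.4 ± 0.730% in knockdown cells. The shares of ULBP2 went from 15.8 ± 0.721% to 9.77 ± 0.611% and those of ULBP3 from 13.3 ± 0.809% to 6.43 ± 0.296%, which is a smaller part of a larger total. ULBP1 contributed 0.439 ± 0.00957% and 1.11 ± 0.312%, so that its larger ratio added little RNA. RAET1G made up 1.42% and 0.636%, and RAET1E and RAET1L at most 0.248% of the total in any library. The total and the shares depend on these exon lengths. A shorter length for MICA, such as that of its canonical transcript, would raise its share in both groups.

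The pair MICB and MICA can also be set against each other within each library, where depth cancels. The log2 ratio of their levels per length was -0.24, -0.55 and -0.46 in control and 0.93, 0.98 and 0.83 in knockdown libraries. On these exon lengths, MICA was the more abundant in every control library and MICB in every knockdown library. The mean was -0.42 ± 0.16 in control and 0.92 ± 0.076 in knockdown cells (SD, n = 3). With the longest transcript as length, MICA exceeded MICB in control, at 8.07 against 4.11, and MICB exceeded MICA in knockdown cells, at 13.6 against 10.6. The canonical MICA transcript is shorter than both lengths, with 1246 windows as long as a read against 2292 for MICB. Per base of the canonical transcripts, MICA would exceed MICB in knockdown cells too. The order of the pair after knockdown thus depends on the length, whereas the difference in log2 ratio between the groups does not.

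**Figure D3:**
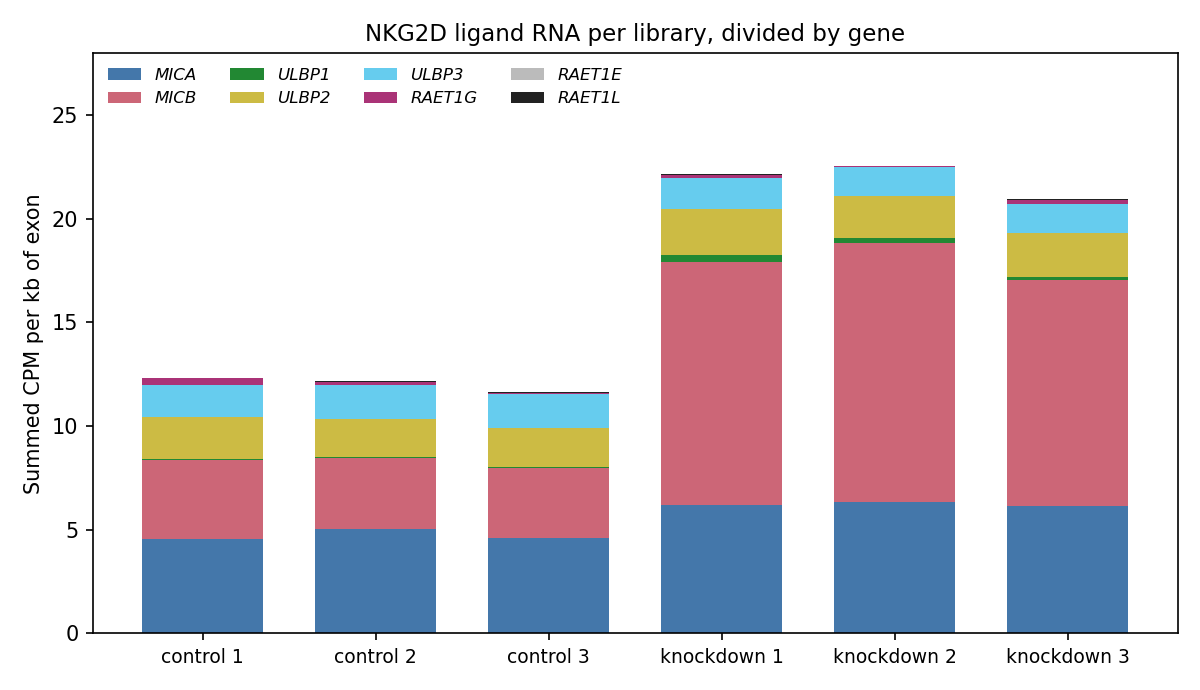
Summed CPM per kb of exon (vertical axis, from 0) of 8 NKG2D ligand genes in each of the 6 libraries, with the bar divided by gene. The total goes from 11.6 to 12.3 in control to 21.0 to 22.6 in knockdown libraries, and the MICB part takes up most of the difference.

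The tested genes most like MICB were sought by the root mean square difference of log2 CPM, each gene relative to its control mean, over the 6 libraries and 11177 genes that averaged 100 normalized counts or more. The nearest was PM20D2, which encodes an amidohydrolase of dipeptides, at a difference of 0.14, with a log2 fold change of 1.57. ANKRD1, an ankyrin repeat protein of muscle and a target of YAP, followed at 0.15 and 1.5. ADM2, a peptide hormone related to adrenomedullin, was at 0.18 and 1.60, TGFB2, a transforming growth factor ligand, at 0.21 and 1.44, and FAM234B at 0.22 and 1.43. None of these 5 genes lies on chromosome 6p, and the 6 values compared share their libraries and depth.

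Around MICB itself, in the 100 kb on either side, only MICA, at a distance of 79566 bp, and NFKBIL1, at 35746 bp, passed the filter on low counts. NFKBIL1, which encodes a protein related to NF-kappa-B inhibitors, had normalized counts of 131 ± 12.5 in control and 138 ± 5.71 in knockdown cells (SD, n = 3), with a log2 fold change of 0.08 and an adjusted p of 0.58 in edgeR's quasi-likelihood test. TNF, LTA and LTB, the cytokine genes of the same stretch, were listed at 0 in all 6 libraries. DDX39B, named after its values were seen, was also listed at 0, and it overlaps a read-through gene on the same strand, so that a listing at 0 in this stretch need not mean that a gene is silent. MICB-DT, a non-coding gene that shares 55 exon bases with MICB on the other strand, had 1, 1 and 0 counts in control and 0 in each knockdown library. HCP5, a non-coding gene between MICA and MICB, had 1 count in each of 2 libraries.

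The remaining genes of NK cell recognition were taken from lists, with p-values from edgeR's quasi-likelihood test adjusted by Benjamini-Hochberg over all tested genes. The counts stand beside the 11.7% of all tested genes that were called and the 48.3% with an adjusted p under 0.05. The other NKG2D ligands RAET1E and RAET1L were too low to test, at 3, 2 and 4 against 1, 2 and 4 counts and at 0, 1 and 1 against 1, 1 and 2 counts. Of the nectins and the related CADM1, the family to which PVR belongs, 4 of 5 were tested and none was called. The log2 fold change was 0.05 for NECTIN2, the other DNAM-1 ligand (adjusted p = 0.37), 0.04 for NECTIN3 (adjusted p = 0.57) and -0.02 for CADM1 (adjusted p = 0.83), and the signs of the last 2 changed when single libraries were left out. NECTIN1 was lower by a small amount, at a log2 fold change of -0.22 (adjusted p = 0.012), and NECTIN4 was too low to test.

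Among 10 other ligands of NK cell receptors, 7 were tested and 1 was called. PDGFD, a growth factor that binds NKp44, fell with a log2 fold change of -0.59 (adjusted p = 4.5e-05), from 453 ± 7.35 to 302 ± 30.8 normalized counts (SD, n = 3). This lies at the fold cutoff, and PDGFD was not called without knockdown replicate 1 (log2 fold change -0.54) or without knockdown replicate 2 (-0.56), nor when scaled by library size alone (-0.53). All 3 ligands of the inhibitory receptor KLRG1, the classical cadherins, were tested and fell. Their log2 fold changes were -2.02 for CDH1 or E-cadherin (adjusted p = 3.9e-08), -1.16 for CDH2 or N-cadherin (adjusted p = 6.8e-10) and -0.73 for CDH4 or R-cadherin (adjusted p = 3.7e-06). By qRT-PCR in the paper, CDH1 transcript fell with LINC01133a and, by less, with LINC01133b, a less efficient oligo. The paper also reported a loss of E-cadherin protein by Western blot. CDH2 transcript fell there with LINC01133a only. Over the 7 tested ligands of the former list the median log2 fold change was -0.23. Over the 3 cadherins it was -1.2, against 0.0032 for all tested genes.

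The class I antigen presentation genes that act with HLA-E and B2M gave a mixed picture. Among the other class I heavy chains, HLA-F, a chain with limited surface expression that binds NK receptors, rose with a log2 fold change of 0.67 (adjusted p = 0.0012), from 158 ± 34.5 to 253 ± 23.9 normalized counts (SD, n = 3), and was not called without control replicate 2, at 0.52. HLA-C was higher by less than 1.5-fold (log2 fold change 0.26, adjusted p = 0.0013), HLA-B had a value of 0.14 (adjusted p = 0.082), and HLA-G was listed at 0. All 12 peptide loading genes were tested and 1 was called. PDIA3, the disulfide isomerase of the loading complex, fell with a log2 fold change of -1.25 (adjusted p = 4.6e-11), from 22741 ± 384 to 9535 ± 216 normalized counts. At any fold change, 6 of the 12 reached an adjusted p under 0.05, a share near the 48.3% of all tested genes. Those 6 were lower in knockdown cells, and the list's median was -0.20. Of 11 transcription factors of class I genes, 10 were tested and none was called. At any fold change, 6 of the 10 had an adjusted p under 0.05, 3 of them higher and 3 lower in knockdown cells. RELA, a subunit of NF-kappa-B and among the most abundant of the factors, had a log2 fold change of 0.09, with an adjusted p of 0.078. IRF9 was listed at 0, which by itself does not show that the gene is silent.

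NKG2D ligands can be cut from the surface by proteases, and 6 of 7 such genes were tested, none of which was called. All 6 had an adjusted p under 0.05, and 5 of them were lower by less than 1.5-fold, with a median log2 fold change of -0.16. ADAM9, a membrane metalloprotease, was at -0.13 (adjusted p = 0.010), and PDIA6, a disulfide isomerase that assists MICA shedding, at -0.15 (adjusted p = 0.0043).

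Of 24 genes described as regulators of NKG2D ligand RNA, 23 were tested and 2 were called, both higher, which is no larger a share than the 11.7% of all tested genes. IGF2BP3, an RNA-binding protein known to act on NKG2D ligand messages, had 56, 55 and 50 counts in control and 143, 112 and 110 in knockdown libraries, with a log2 fold change of 1.09 (adjusted p = 2.6e-05). HDAC1, a histone deacetylase, went from 4702 ± 374 to 8287 ± 136 normalized counts (SD, n = 3), a log2 fold change of 0.82 (adjusted p = 3.8e-08). MIR17HG, the host transcript of miR-17 and miR-20a, was at 0.57 (adjusted p = 0.00065), just under the fold cutoff and past it when scaled by library size alone (0.63) or without control replicate 1 (0.59), control replicate 3 (0.61) or knockdown replicate 1 (0.63), and MCM7, the host of miR-93 and miR-106b, at -0.09 (adjusted p = 0.093). A host transcript is not a measure of the mature miRNAs shown above. The median of the 23 genes was 0.04.

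Heat shock genes are the textbook carriers of the heat shock element, whose core letters had 1 match each at MICA and MICB. Whether these letters act there was not tested. Of the heat shock genes, 10 of 13 were tested. HSPB1, a small heat shock protein, rose with a log2 fold change of 0.94 (adjusted p = 1.5e-08), from 2909 ± 190 to 5581 ± 288 normalized counts (SD, n = 3). It was the only call, while 8 of the other 9 tested genes reached an adjusted p under 0.05 with lower values in knockdown cells, all by less than 1.5-fold. The list's median was -0.26. HSPA1A and HSPA1B, near-identical copies whose reads cannot be placed uniquely, held 1 count in all.

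Marker genes moved with the condition as well. Of the 6 epithelial markers, all tested, CDH1, KRT19 (log2 fold change -0.88, adjusted p = 1.1e-09), KRT8 (-0.63, adjusted p = 2.4e-08) and KRT7 (-0.59, adjusted p = 2.1e-07) were called lower, the last 2 of them close to the fold cutoff. KRT8 was not called when scaled by library size alone (-0.56), and KRT7 was called neither then (-0.53), nor with at least 10 counts in every library (-0.58), nor with control replicate 1 left out (-0.55), nor with the second (-0.58) or the third (-0.56) knockdown library left out. For KRT7 and KRT19, the paper's qRT-PCR found no significant reduction in knockdown cells. The summed normalized level of the 6 epithelial markers was 199952 to 210812 in control and 127729 to 133727 in knockdown libraries. EPCAM, an epithelial surface protein, was near the lower limit of detection, at 18.0, 13.5 and 9.33 normalized counts in control and 22.0, 11.7 and 17.0 in knockdown cells. Of 13 NK cell and leukocyte markers, 6 were listed at 0 in all libraries, among them KLRK1 (NKG2D itself), NCR1 and PRF1, and 9 held fewer than 10 counts in total. A listing at 0 does not by itself show that a gene is silent. CD226, or DNAM-1, had 30, 26 and 26 counts in control and 24, 19 and 16 in knockdown libraries. It was not called (log2 fold change -0.56, adjusted p = 0.05). PTPRC had 25, 25 and 19 counts in control and 23, 16 and 23 in knockdown libraries. Without NCAM1, which differed by 0.32 on the log2 scale (adjusted p = 0.00045), the summed level of the list was 57.0 to 66.5 in control and 38.8 to 48.8 in knockdown libraries, and with it 706 to 737 and 820.3 to 898. The part of the marker differences in the ligand values was not tested. In bulk RNA of this single line, fewer cells with a marker and less of its RNA per cell cannot be told apart.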

How the data were processed

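PolyA RNA of 12Z cells was sequenced as paired reads by the authors, who mapped unique reads with STAR 2.7.6a to GRCh38.p13 and deposited counts per gene for 6 libraries, 3 control and 3 knockdown, in columns for each strand setting. The labels name an NEB library and the methods a TruSeq kit. Column 4, for pairs whose first read is opposite to the gene, held 94.0% of the stranded counts and was used here. In all, 0 other sample columns were left out. Groups and replicate numbers came from the labels. Between 13.7 and 15.0% of read pairs per library were unmapped or not assigned to a gene, and stayed out of all tests. Of the gene identifiers, 60463 matched GENCODE v44 without version and 197 did not, and positions and exon lengths come from it.

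The counts were fitted with edgeR 4.0.16 (R 4.3.3; filterByExpr with a minimum count of 10, TMM scaling, quasi-likelihood test, Benjamini-Hochberg adjustment), with condition as the only term, over 15155 genes. The fit was first tested on simulated data. Normalized counts are counts divided by the effective library size and multiplied by the mean library size. Log2 CPM for the likeness to MICB added 0.5 CPM. Precision is limited by 27742562 to 37551194 counts per library, and counting intervals are exact binomial ones.

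The genes and lists were chosen with earlier results of these data known. Named genes are the 10 ligands, the target, the other NKG2D ligands, HLA heavy chains and nectins, from every other list up to 3 called genes of largest change (or the 2 most abundant where none was called), the 5 genes most like MICB, and the tested genes within 100 kb of it. MIR17HG, MCM7, EPCAM, KRT7, the marker genes, the untested neighbours of MICB and the genes listed at 0 lie outside this rule and were named after their values were seen. Some genes that the rule names are not reported here. DESeq2 1.42.0, other scalings and filters, unstranded counts, glmTreat, a replicate block and leaving out each library were tried as alternatives.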

Additional observations from a re-analysis of the deposited data

How the results depend on the processing

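Over 14 alternatives the log2 fold changes of the 9 tested ligands kept their sign and their side of the call cutoffs wherever they were tested. MICB ranged from 1.68 to 1.79, MICA from 0.36 to 0.46, B2M from -0.34 to -0.23, and ULBP1 from 2.01 to 2.42 over 13 alternatives. With at least 10 counts required in every library ULBP1 was not tested, and 1 ligand was called in place of 2. Leaving out each library in turn gave 2 called ligands every time, 10 to 15 called genes in the other lists against 12, and 1641 to 1815 called genes in all against 1778. Testing against a fold change of 1.5 (glmTreat), a stricter hypothesis by construction, gave 578 calls, 174 higher and 404 lower, and 7 calls in the other lists. Scaling by library size alone moved the median of all tested genes to 0.065 and the share of calls that were higher from 45.2% to 55.9%, and glmTreat moved it to 30.1%. DESeq2 gave 1446 calls, of which 1434 were shared in direction with the 1778. Among the other named genes 438 gene-by-alternative results were the same, 15 lost the call, 4 gained it and 4 changed sign. The 4 gains were of MIR17HG, at 0.59 to 0.63. The sign changes were CADM1, at 0.04 with library size alone and 0.01 without control replicate 2 and without knockdown replicate 3, and NECTIN3 at -0.01 without control replicate 1, and neither gene was called in either fit. Without single libraries these ranged from -0.06 to 0.01 and from -0.01 to 0.08. PDGFD lost its call with library size alone (-0.53) as did KRT8 (-0.56) and KRT7 (-0.53), and PDGFD, CDH4, HLA-F, KRT8 and KRT7 lost it under glmTreat. KRT7 also lost it with at least 10 counts in every library (-0.58) and without each of 3 single libraries (-0.58 to -0.55). The cause of these changes was not tested. Libraries with the same replicate number did not deviate together (correlations of -0.032, 0.0038 and 0.073), so the numbers were not taken as pairs, and a fit with replicate block gave 1747 calls, 780 higher and 967 lower, with 2 called ligands and 12 in the other lists. Depth limits RAET1G, RAET1E, RAET1L and ULBP1, whose control libraries hold at most 16 counts.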
